A study of Mus musculus with 6 samples.

Results

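Heat shock proteins are molecular chaperones, and 10 of their genes were examined here in mouse white adipose tissue. They are Hspa1a, Hspa1b, Hspa8, Hspb1, Hsph1, Dnajb1, Hsp90aa1, Hsp90ab1, Hspd1 and Hsf1. The genes were taken from a fixed list of symbols and matched to Ensembl identifiers, and all 10 were found among the 22040 genes of the deposited table. In the order just given, their identifiers are ENSMUSG00000091971, ENSMUSG00000090877, ENSMUSG00000015656, ENSMUSG00000004951, ENSMUSG00000029657, ENSMUSG00000005483, ENSMUSG00000021270, ENSMUSG00000023944, ENSMUSG00000025980 and ENSMUSG00000022556. RNA sequencing covered 3 control samples (CTR) and 3 Rb1 samples. Control mice received saline by intraperitoneal injection, and Rb1 mice received Rb1, the ginseng saponin ginsenoside Rb1, by the same route at 14 mg/kg per day. The sources used here do not give the strain, age or diet of the mice, the fat depot, or how long treatment lasted. The comparison asks which chaperone transcripts differ in the tissue after Rb1. Values listed sample by sample follow the order of replicates 1, 2 and 3.

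Chaperones of the HSP70 and HSP90 families bind unfolded or immature proteins and release them in cycles driven by ATP. J-domain proteins deliver clients to HSP70, HSP110 proteins exchange its nucleotide, and small heat shock proteins hold aggregating proteins without ATP. HSF1 is the transcription factor that raises the inducible chaperones when unfolded proteins accumulate, by binding inverted repeats of the letters GAA, the heat shock element. Constitutive family members such as Hspa8 and Hsp90ab1 are made in unstressed cells too.

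The inducible HSP70 pair and its J-domain partner Dnajb1 had lower values with Rb1, and the other 7 genes had higher values, but none of these differences passed the test over all genes. edgeR's quasi-likelihood test called 0 of the 10 genes at an adjusted p under 0.05, against a background of 0.0071% of the 14093 genes tested. All 10 genes passed the filter on low counts. DESeq2 called 0 of 10 as well, against 2.79% of all genes. At an unadjusted edgeR p under 0.05 there was 1 of 10, Hspb1, against 11.6% of all genes (4.01% higher and 7.54% lower with Rb1). The log2 fold changes ran from -0.65 for Hspa1a to 0.31 for Hspd1, and their median was 0.19, beside 0.01 over all tested genes. Positive values were found in 7 of 10 genes, against 51.3% of all genes, and negative values in 3 of 10, against 48.7%. The median was 0.04 without control replicate 1, 0.09 without Rb1 replicate 2 and 0.25 without control replicate 2, where all 10 genes kept their sign. FPKM values (counts scaled to gene length and to the library total) did not overlap between the groups for 4 of 10 genes, against 16% of all genes. These were Hspb1, Hspd1 and Hsf1 on the higher side (3 of 10, background 5.48%) and Dnajb1 on the lower side (1 of 10, background 10.5%). The same 4 genes did not overlap after TMM scaling, where the background was 17.5% (7.73% higher and 9.74% lower).

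**Figure D1:**
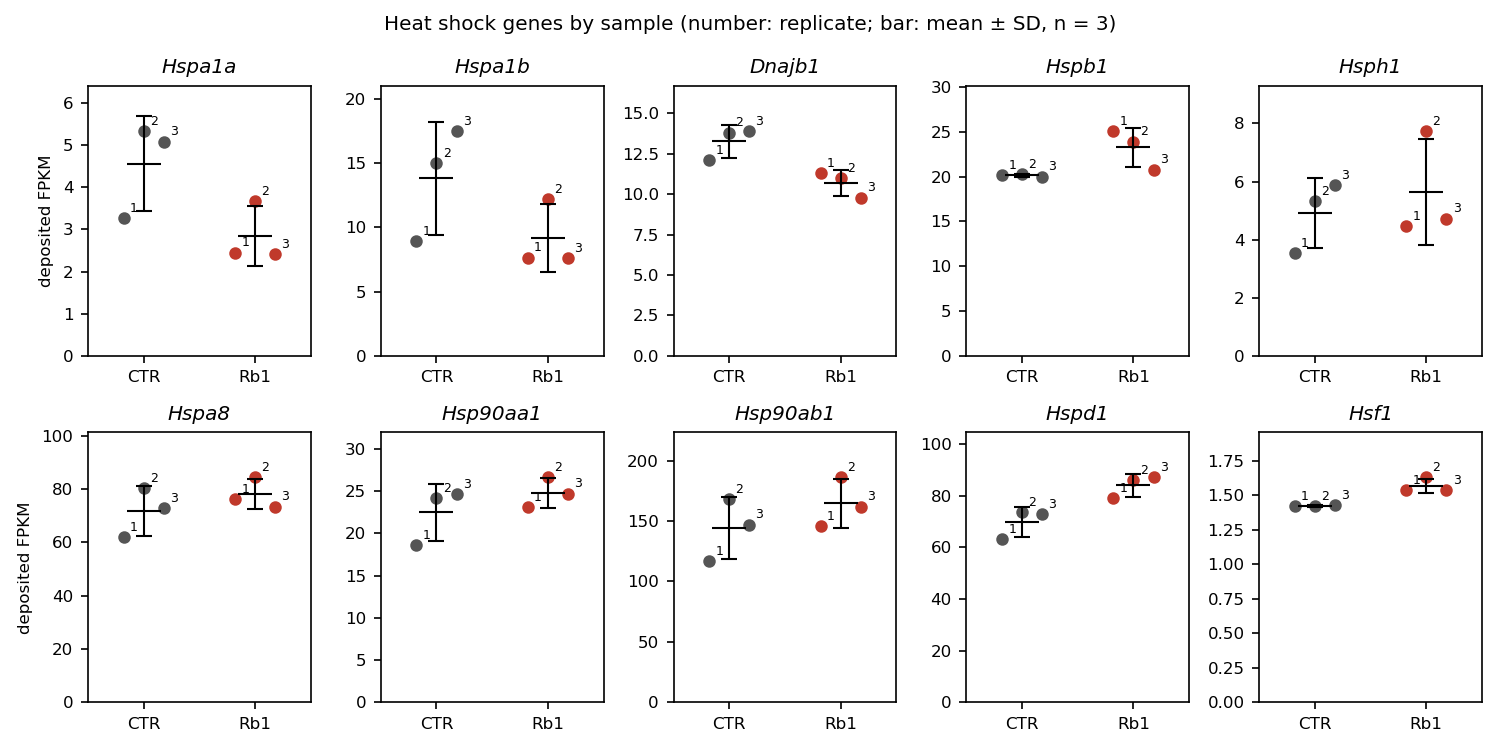
Deposited FPKM (y axis, from 0) of the 10 heat shock genes in the 3 CTR and 3 Rb1 samples, 1 panel per gene; points are samples labelled by replicate number, and bars are mean ± SD. CTR and Rb1 points do not overlap for Dnajb1, Hspb1, Hspd1 and Hsf1 and overlap for the other 6 genes.

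Library totals ranged from 15440339 to 24501446 counts. The adipocyte markers chosen for this tissue were abundant in every sample, with a sum of 26339 to 32716 CPM (counts scaled to the library total alone) over 10 genes. Control replicate 2 carried skeletal muscle transcripts, 36624 CPM summed over 18 muscle genes, against 540 and 559 CPM in the other controls and 65.9 to 251 CPM with Rb1. Among the muscle markers, Mb was at 0 counts in Rb1 replicate 3. Over all tested genes, 48.7% had negative and 51.3% positive fold changes. Macrophage markers were lower with Rb1 in 10 of 10 genes, and their summed level was 2025 to 2552 CPM in controls and 1192 to 1767 CPM with Rb1. The endothelial markers had positive fold changes in 6 of 6 genes, and all 6 were highest in Rb1 replicate 1. Erythroid markers had positive fold changes in 5 of 5 genes, at 238 to 410 CPM in controls and 421 to 643 CPM with Rb1. Lymphocyte markers stayed between 6.22 and 24.9 CPM and brown adipocyte markers between 14.5 and 40.8 CPM in all samples. Immediate early genes, which respond to tissue handling as well as to stimuli, had negative fold changes in 15 of 19 genes, with a median of -0.34. Their summed level overlapped between groups, at 1405 to 1782 CPM in controls and 969 to 1569 CPM with Rb1. In bulk tissue, fewer cells of a type and less RNA per cell cannot be told apart, and the part of these cell types in the results below was not tested.

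Hspa1a and Hspa1b encode the stress-inducible HSP70 and lie side by side on chromosome 17 (GRCm38). Hspa1a spans 34969190 to 34972156 and Hspa1b spans 34956436 to 34959238, both on the minus strand. Each is a single exon. Their coding sequences were 99.6% identical over 1923 aligned bases. Of all stretches of 50 bases in the Hspa1a transcript, 58.8% occurred exactly in Hspa1b, so the split of reads between the pair depends on how the authors assigned shared reads, a step that the sources used here do not describe. The 250 bases before their start sites, from RefSeq on GRCm38.p6, are printed because the pair had parallel values across the samples. Capitals mark letters that match a heat shock element of 2 units, GAANNTTC or TTCNNGAA, each of which reads the same on both strands.
Hspa1a, chr17:34972157-34972406, minus strand: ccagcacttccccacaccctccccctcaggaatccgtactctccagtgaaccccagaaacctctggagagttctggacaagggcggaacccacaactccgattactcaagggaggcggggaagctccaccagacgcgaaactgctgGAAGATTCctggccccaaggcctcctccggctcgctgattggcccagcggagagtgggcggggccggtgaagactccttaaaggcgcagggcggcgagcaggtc
Hspa1b, chr17:34959239-34959488, minus strand: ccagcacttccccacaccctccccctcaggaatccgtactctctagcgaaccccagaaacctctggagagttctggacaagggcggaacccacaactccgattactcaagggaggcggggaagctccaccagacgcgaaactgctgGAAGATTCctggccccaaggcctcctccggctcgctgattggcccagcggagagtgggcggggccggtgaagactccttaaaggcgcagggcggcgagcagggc
From Hspa1a to Hspa1b the substitutions are C44T, T47C and T249G, counted from 1 at the 5′ end of the printed sequence, and the other 247 of 250 bases are identical. The match begins 104 bases before the start site in both genes.

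Hspa1b was the more abundant of the pair, with 2.58 to 3.26 times the counts of Hspa1a in each of the 6 samples. Hspa1b stood at 8.92, 15 and 17.5 FPKM in the controls and at 7.64, 12.2 and 7.60 FPKM under Rb1. Hspa1a stood at 3.26, 5.33 and 5.08 FPKM in the controls and at 2.45, 3.67 and 2.41 FPKM with Rb1. In both genes control replicates 2 and 3 were the highest samples, and Rb1 replicates 1 and 3 were the lowest. The groups overlapped because Rb1 replicate 2 lay above control replicate 1. The Hspa1a level was 0.639 times that of controls in edgeR (log2 fold change -0.65, SE 0.28, adjusted p = 0.445). For Hspa1b the value was 0.679 times (log2 fold change -0.56, SE 0.32, adjusted p = 0.573). With 1 sample left out, the log2 fold change of Hspa1b ran from -0.85 without Rb1 replicate 2 to -0.33 without control replicate 3, and that of Hspa1a from -0.90 without Rb1 replicate 2 to -0.51 without Rb1 replicate 1. Summed over both genes, the level was 34.7, 57.8 and 64.1 CPM in controls and 28.7, 45.1 and 28.4 CPM with Rb1. The sum gave an exact two-sided permutation p of 0.2, where 3 samples against 3 cannot go below 0.1.

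Dnajb1 encodes the J-domain protein known as HSP40, which stimulates the ATPase of HSP70. The gene occupies chromosome 8 from 83608193 to 83612653, plus strand. Its level was 12.1, 13.8 and 13.9 FPKM in the controls and 11.3, 11 and 9.78 FPKM under Rb1. Every Rb1 sample lay below every control on the FPKM scale. After TMM scaling the closest samples, control replicate 1 and Rb1 replicate 2, both stood at 36.8 CPM to 3 digits. The means were 13.3 ± 0.972 FPKM in controls and 10.7 ± 0.809 FPKM with Rb1 (SD, n = 3 per group, log2 fold change -0.27, SE 0.12, edgeR adjusted p = 0.435). Neither of its RefSeq promoter windows held a match of 2 units.

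Hspa8 encodes HSC70, the constitutive HSP70 of the cytosol, and Hsph1 encodes HSP110, which exchanges its nucleotide. Hspa8 is on chromosome 9 from 40800984 to 40810087 and stood at 61.9, 80.4 and 72.7 FPKM in the controls. Under Rb1 it stood at 76.2, 84.3 and 73.4 FPKM. The groups overlapped and control replicate 1 alone was clearly low (log2 fold change 0.16, SE 0.16, edgeR adjusted p = 0.757). Without control replicate 1 the log2 fold change was 0.04. Hsph1 is on chromosome 5 from 149614287 to 149636376 and stood at 3.55, 5.33 and 5.87 FPKM in the controls and at 4.46, 7.74 and 4.72 FPKM under Rb1. Its highest value came from Rb1 replicate 2 and its lowest from control replicate 1. The log2 fold change of Hsph1 was 0.24 (SE 0.30, edgeR adjusted p = 0.820), and it was -0.09 without Rb1 replicate 2 and 0.03 without control replicate 1.

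Relating the inducible HSP70 pair to Hspa8 within each library removes the scaling between libraries. The ratio of Hspa1a plus Hspa1b to Hspa8, in FPKM, was 0.197, 0.253 and 0.311 in the controls. Under Rb1 it was 0.132, 0.188 and 0.136. All 3 Rb1 ratios lay below all 3 control ratios, and the mean ratio with Rb1 was 0.601 times that of controls. The exact two-sided permutation p was 0.1, the smallest that this design allows. Dnajb1 over Hspa8 was 0.171 to 0.196 in controls and 0.130 to 0.149 with Rb1, also without overlap. That second ratio was formed after the values were seen and has no test. The share of the 10 genes in all counts was 0.204% ± 0.0295 in the control group and 0.226% ± 0.0210 in the Rb1 group (SD, n = 3 per group, exact two-sided permutation p = 0.5).

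**Figure D2:**
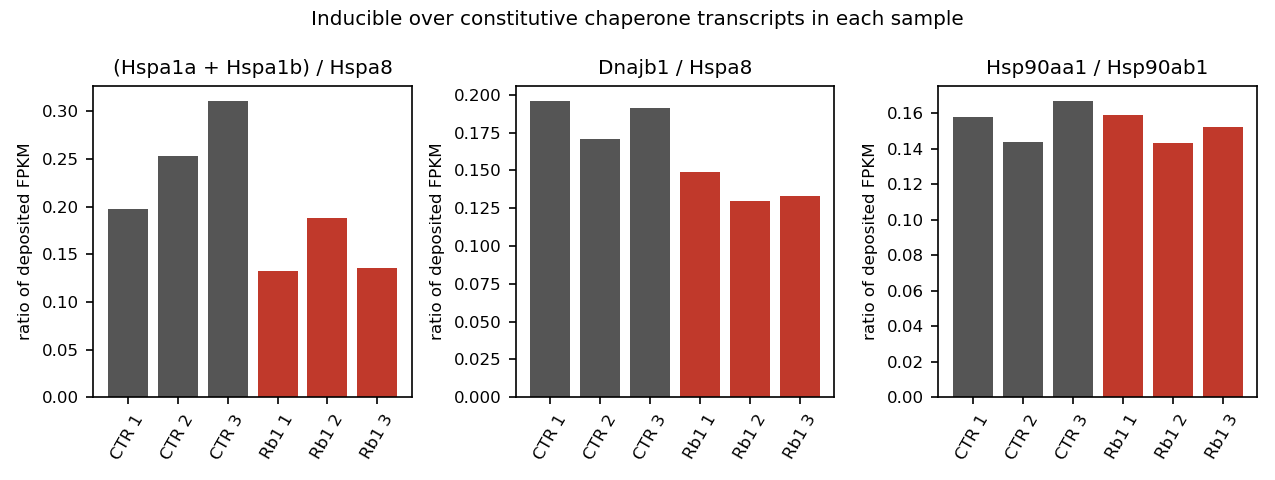
Ratio of deposited FPKM (y axis, from 0) in each of the 6 samples for 3 gene pairs; grey bars are CTR and red bars are Rb1. The first ratio spans 0.197 to 0.311 in CTR and 0.132 to 0.188 in Rb1, and the Hsp90aa1 to Hsp90ab1 ratio overlaps between groups.

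Hsp90aa1 encodes the inducible and Hsp90ab1 the constitutive HSP90 of the cytosol, a chaperone of kinases and steroid receptors. Hsp90ab1 is on chromosome 17 from 45567775 to 45573271 and Hsp90aa1 on chromosome 12 from 110690605 to 110702728. Hsp90ab1 stood at 117, 168 and 147 FPKM in the controls and at 146, 186 and 162 FPKM under Rb1. Hsp90aa1 stood at 18.6, 24.2 and 24.6 FPKM in the controls and at 23.1, 26.6 and 24.7 FPKM with Rb1. In both genes control replicate 1 was the lowest sample and Rb1 replicate 2 the highest, and the groups overlapped. The log2 fold change was 0.24 for Hsp90ab1 (SE 0.20, edgeR adjusted p = 0.708) and 0.18 for Hsp90aa1 (SE 0.16, edgeR adjusted p = 0.735). Leaving out control replicate 1 moved them to 0.09 and 0.04. The ratio of the inducible to the constitutive form was 0.157 ± 0.0114 in the control group and 0.151 ± 0.00768 in the Rb1 group (SD, n = 3 per group, exact two-sided permutation p = 0.6).

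Hspd1 encodes HSP60, the chaperonin of the mitochondrial matrix. It lies on chromosome 1 from 55077835 to 55088243 on the minus strand. Its FPKM values were 63.2, 73.6 and 72.7 in the controls and 78.9, 85.9 and 87.0 under Rb1. All Rb1 samples lay above all controls. The log2 fold change was 0.31 (SE 0.13, edgeR adjusted p = 0.445), the largest positive value among the 10 genes and short of the threshold. Its co-chaperonin gene Hspe1, which encodes HSP10, starts on the opposite strand, and the pair shares 112 bases of exon positions, so reads there cannot be assigned without strand. Hspe1 overlapped between groups, at 17.6, 22.7 and 18.9 FPKM in controls and 24.2, 17.8 and 25.2 FPKM with Rb1. Of the 14 other genes of mitochondrial chaperones and proteases, 12 had positive fold changes (median 0.15), against 51.3% of all genes. In edgeR and DESeq2, 0 of the 14 passed. None of the 14 had an unadjusted edgeR p under 0.05, against 11.6% of all genes. Trap1, the HSP90 of mitochondria, had a log2 fold change of 0.28 (edgeR adjusted p = 0.572). Spg7, a subunit of an inner-membrane protease, stood at 0.22 (adjusted p = 0.441), and Clpx, which unfolds substrates for the matrix protease ClpP, stood at 0.23 (adjusted p = 0.497).

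The stretch just before the Hspe1 start, inside an annotated first exon of Hspd1 and ahead of another Hspd1 start, holds the longest heat shock element letters found among the 10 genes. It is shown with the longest match of Hsph1 as windows of at most 30 bases, since both lie in annotated exons. The Hsph1 window lies after the RefSeq starts of that gene. A separate match of 2 units before those starts is not printed. A match of 3 units continues GAANNTTC or TTCNNGAA by NN and a further unit in alternating orientation, on either strand. It contains overlapping matches of 2 units, and capitals mark all matched letters.
Hspd1, chr1:55088053-55088082, minus strand: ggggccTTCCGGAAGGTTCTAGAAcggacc
Hsph1, chr5:149636287-149636307, minus strand: ctgcagaTTCTGGAAAGTTCt
Hspb1, chr5:135887669-135887918, plus strand: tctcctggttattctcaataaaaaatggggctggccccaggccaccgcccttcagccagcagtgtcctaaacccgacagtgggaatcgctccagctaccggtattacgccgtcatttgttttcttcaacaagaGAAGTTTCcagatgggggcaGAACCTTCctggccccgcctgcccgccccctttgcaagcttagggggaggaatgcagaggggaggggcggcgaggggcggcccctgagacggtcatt
The Hspb1 sequence is the 250 bases before its start and has separate matches. RefSeq promoter windows of 300 bases were found for 6 of the 10 genes (9 windows). At least 1 match of 2 units was present in 5 of these 6 genes, beside 17% of the 27025 genes with a window, and a match of 3 units in 2 of 6, beside 0.662%. Counted by window, 6 of 9 held a match of 2 units, beside 15.1% of all windows. Hspa1a and Hspa1b count separately here although their promoters are nearly identical. Genes with a match had values on both sides of 0. Hspa1a and Hspa1b, with 1 match each, were lower in value, while Hspd1, Hspb1 and Hsph1 were higher. Dnajb1, the gene without a match in its windows, was lower in value.

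Hspb1 encodes HSP27, a small heat shock protein that also binds actin. The gene occupies chromosome 5 from 135887919 to 135889563, plus strand. It was uniform in controls, at 20.2, 20.3 and 20.0 FPKM in replicates 1, 2 and 3. With Rb1 it stood at 25.1, 23.9 and 20.8 FPKM, all above the controls although Rb1 replicate 3 was close to them. The log2 fold change was 0.25 (SE 0.10, unadjusted p = 0.0406, edgeR adjusted p = 0.418). Of the 9 other small heat shock protein genes, 6 were tested and 0 passed in edgeR or DESeq2. Negative values were found in 5 of the 6 (median -0.26), against 48.7% of all genes. At an unadjusted edgeR p under 0.05 there was 1 of 6, against 11.6% of all genes. It was Hspb7, a small heat shock protein of muscle, at 3.64, 4.61 and 6.96 FPKM in controls and 3.59, 3.06 and 1.8 FPKM with Rb1. Its log2 fold change was -0.83 (edgeR adjusted p = 0.419). Hspb6, also abundant in muscle, was highest in control replicate 2, where muscle transcripts were most abundant, at 19.5 FPKM against 11.6 and 7.33 FPKM in the other controls. Its log2 fold change was -0.75 with all samples and -0.30 without control replicate 2. Hspb2 had a log2 fold change of -0.31 and shares exon positions with Cryab on the opposite strand.

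Hsf1 encodes the transcription factor itself and lies on chromosome 15 from 76477422 to 76501913. Its transcript stood at 1.42, 1.42 and 1.43 FPKM in the controls and at 1.54, 1.63 and 1.54 FPKM under Rb1. The groups did not overlap, and the difference was small (log2 fold change 0.19, SE 0.11, edgeR adjusted p = 0.591). HSF1 is regulated mainly after translation, so its transcript level is no measure of its activity. The related factors Hsf2 and Hsf4 had log2 fold changes of -0.22 and -0.42, and the HSF1-binding protein gene Hsbp1 stood at -0.09, with edgeR adjusted p between 0.719 and 0.847. Only these 3 of the 6 other listed genes of this group passed the filter on low counts.

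**Figure D3:**
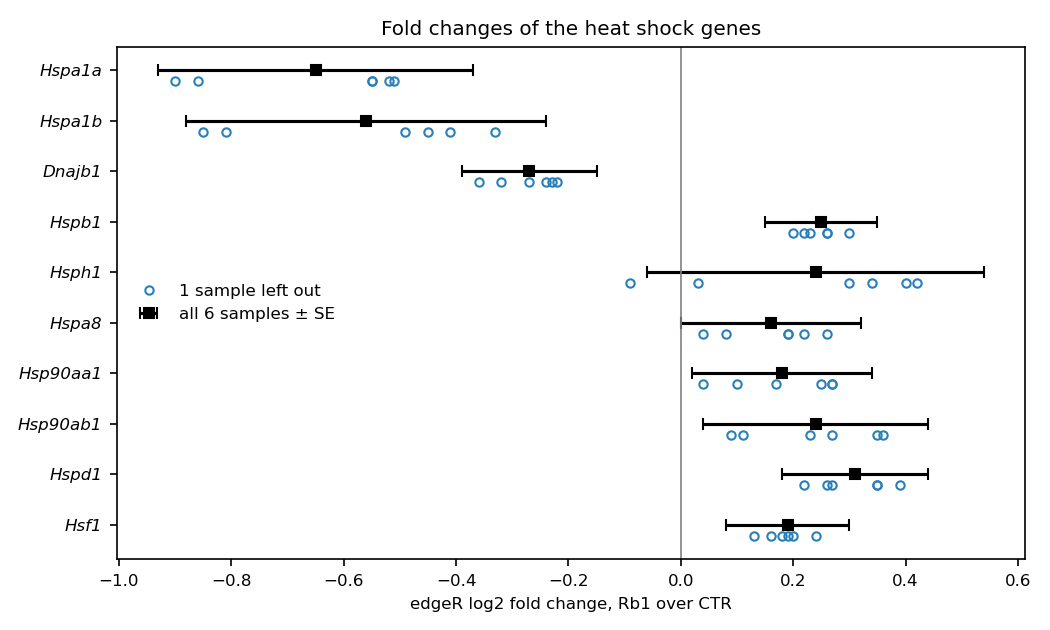
edgeR log2 fold change of Rb1 over CTR (x axis) for the 10 heat shock genes (y axis); black squares are all 6 samples with SE bars, and blue circles are the same fit with 1 sample left out. Hspa1a, Hspa1b and Dnajb1 lie below 0 in every fit shown, and Hsph1 spans -0.09 to 0.42.

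Because the deposited FPKM uses a length that can exceed any single transcript, levels between genes were also compared per length of the longest annotated transcript, with the same library totals. The length behind the FPKM was 9237 bases for Hspa8, whose longest transcript is 3158 bases, and 13138 bases for Hsf1, whose longest transcript is 3133 bases. For Hspa1a and Hspa1b both lengths were equal. On the longest-transcript scale the order of mean levels over 6 samples was Hsp90ab1 at 354, Hspa8 at 219 and Hspd1 at 88.1, and the 6 samples of these genes did not overlap with those of their neighbours in the order. Hsp90aa1 at 47.3 and Hspb1 at 42.8 overlapped with each other. Dnajb1 at 12.8, Hsph1 at 12.5 and Hspa1b at 11.5 overlapped too. Hsf1 at 6.27 lay above Hspa1a at 3.70, while on the FPKM scale Hsf1 lay below Hspa1a in every sample. Per longest transcript, the ratio of Hspa1a plus Hspa1b to Hspa8 was 0.0866 ± 0.0195 in the control group and 0.0521 ± 0.0107 in the Rb1 group (SD, n = 3 per group), so the level of the ratio depends on the length used and its relative difference does not. Reads shared with processed pseudogenes could not be separated here. Stretches of 50 bases that occur exactly in other genes made up 52.7% of the Hspa8 transcript, 58.5% of Hsp90aa1, 51.6% of Hspb1 and 44.8% of Hspd1, against 4.49% of Hsp90ab1, 0.441% of Dnajb1 and 0 for Hsph1 and Hsf1.

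Across the 6 samples the genes varied in sets that were only partly separate. Hspa1a, Hspa1b and Dnajb1 had pairwise Pearson correlations of log2 CPM between 0.90 and 0.97 (Spearman 0.83 to 0.94, 3 pairs). The value of 0.97 belongs to Hspa1a and Hspa1b, where 58.8% of the 50-base stretches of Hspa1a are shared. The part of shared reads in it was not tested, and the 2 genes may not be separate measurements. Dnajb1 stood at 0.94 with Hspa1a and 0.90 with Hspa1b. Hsp90aa1, Hsp90ab1, Hspa8 and Hsph1 had values between 0.89 and 0.98 (Spearman 0.77 to 0.94, 6 pairs). Joined by Hspd1 and Hsf1, the second set had values between 0.72 and 0.98 (Spearman 0.37 to 0.94, 15 pairs). Between the first set and this joined set, the values lay between -0.43 and 0.63 (Spearman -0.71 to 0.66, 18 pairs). The rank correlations within the joined set and between the sets thus overlapped. Hspb1 was placed in neither set. Its Pearson values lay between 0.55 (Hsph1) and 0.78 (Hsf1) with the joined set and between -0.46 (Dnajb1) and -0.21 (Hspa1b) with the first. The sets were formed after the values were seen, the points share their libraries, and the correlations are a description with n = 6. For Hsp90aa1, Hsp90ab1, Hspa8 and Hsph1, control replicate 1 was the lowest and Rb1 replicate 2 the highest sample. Hspd1 was also lowest in control replicate 1 but highest in Rb1 replicate 3. Its log2 CPM lay 0.25 above its mean there and 0.23 above it in Rb1 replicate 2. Progenitor and fibroblast markers were also highest in Rb1 replicate 2 in 6 of 6 genes, with a sum of 5190 CPM there, 3405 to 4117 CPM in controls and 2032 and 4516 CPM in the other Rb1 samples. Their part in the levels of the second set was not tested. In the first set, control replicate 1 and Rb1 replicate 2 lay closest to the middle for Dnajb1, and control replicate 1 was the lowest control for all 3 genes. Immediate early genes followed another order, since 11 of 19 were highest in control replicate 1.

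**Figure D4:**
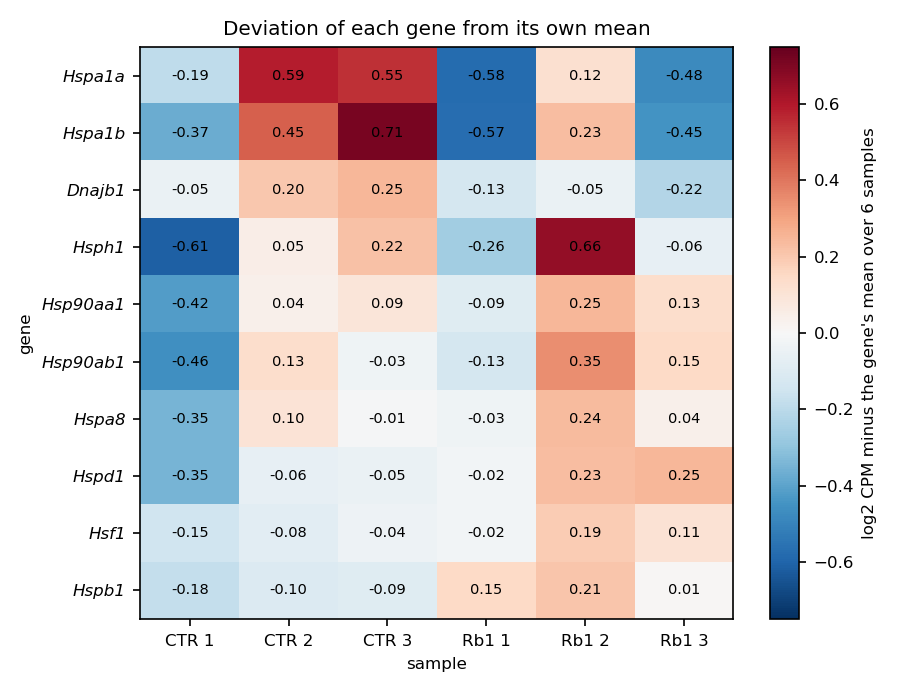
Log2 CPM of each heat shock gene (rows) minus its own mean over the 6 samples (columns are samples); colour and printed number give the deviation. Hspa1a and Hspa1b are high in CTR 2 and CTR 3, and Hsph1, Hsp90aa1, Hsp90ab1, Hspa8 and Hspd1 are low in CTR 1.

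The genes most like the summed Hspa1a and Hspa1b over the 6 samples were sought among the 12913 genes that averaged 1 CPM or more. They included Hoxc6, Zfp771, Rspo3, Svil, Col12a1, St14 and Uba6, with Pearson correlations between 0.980 and 0.955. Rspo3, a secreted Wnt enhancer (log2 fold change -0.80), and Col12a1, a fibril-associated collagen (-0.86), had differences as large as the HSP70 pair, while Svil (-0.11) was close to 0. For Hsp90aa1 they were Dctn4, Nrn1, Kctd21, C1rb, Lancl3, Mul1, Prkca and Magt1, with correlations between 0.993 and 0.988. With 6 samples and this many genes, correlations of at least 0.9 were common, at 61 genes for the HSP70 pair and 260 for Hsp90aa1. None of the genes named here is a chaperone of the gene lists.

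The wider chaperone network was examined through lists of its other genes. In edgeR, 0 of their genes passed after adjustment over all genes tested, and DESeq2 called Hspa12b alone, against 2.79% of all genes. The immediate early genes, listed beside the chaperones, had 0 calls in edgeR and 3 in DESeq2. Over all tested genes, 51.3% had positive values and 11.6% had an unadjusted edgeR p under 0.05, to set beside each list below. HSP70 and HSP90 cochaperones had positive values in 16 of 20 genes (median 0.10), and 2 of 20 had an unadjusted p under 0.05. Those were Bag4 (log2 fold change 0.28, adjusted p = 0.427) and Bag2 (-0.50, adjusted p = 0.409), nucleotide exchange and ubiquitin ligase partners of HSP70. Ptges3, the HSP90 cochaperone p23, stood at 10.4, 13.2 and 13.9 FPKM in controls and at 15, 14.5 and 16.6 FPKM with Rb1, without overlap (log2 fold change 0.34, edgeR adjusted p = 0.471). The other J-domain proteins were balanced, with 6 positive and 8 negative values of 14. Dnajb5 (-0.83) was highest in control replicate 2 and stood at -0.37 without it, Dnajb14 stood at 0.38 and Dnajc7 at 0.20. Without control replicate 2, DESeq2 called Dnajb14 (0.58, adjusted p = 0.0118), which it did not call with all samples (adjusted p = 0.395). TRiC and prefoldin subunits, which fold actin and tubulin, were positive in 11 of 13 tested genes (median 0.13), with the smallest p for Tcp1 (0.25), Cct3 (0.18) and Cct8 (0.15). Known HSF1 targets outside the 10 genes were positive in 13 of 18 (median 0.07), and 0 of 18 had an unadjusted p under 0.05. Ptges3 and Tcp1 were among those with the smallest p. Exon positions shared with a gene on the opposite strand make the counts of Bag2, Bag4, Cct8, Dnajb14, Dnajc7, Hspb6, Tcp1 and Trap1 uncertain where strand was not used. Dnajb14, Hspb6 and Tcp1 also share positions with a gene on their own strand, which strand cannot separate.

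Among the 9 other HSP70 and HSP110 genes, Hspa12b, an HSP70 relative known from endothelial cells, had the smallest p. It stood at 19.8, 18.2 and 19.4 FPKM in the controls and at 29.1, 21.6 and 24.7 FPKM under Rb1. All Rb1 samples were above the controls, and the highest was Rb1 replicate 1, where the endothelial markers summed to 2526 CPM against 1436 to 1695 CPM elsewhere. The part of that library's endothelial level in the result was not tested. The log2 fold change was 0.43 (SE 0.11, edgeR adjusted p = 0.237, DESeq2 adjusted p = 0.0370). Without control replicate 2 the DESeq2 call was lost, at 0.40 with an adjusted p of 0.265. Hspa9, the mitochondrial HSP70 mortalin, stood at 0.16 without overlap, and Hspa4, a cytosolic HSP110, stood at 0.17. The 9 genes were split, with 5 positive and 4 negative values (median 0.12). Chaperones of the endoplasmic reticulum answer to the unfolded protein response rather than HSF1. They had positive values in 13 of 14 genes (median 0.14), against 51.3% of all genes. Manf, a secreted stress factor of that compartment, stood at 5.5, 5.64 and 6 FPKM in controls and at 7.19, 7.38 and 8.83 FPKM with Rb1 (log2 fold change 0.49, edgeR adjusted p = 0.269), and Manf shares exon positions with Dcaf1 and Rbm15b. Hyou1, the HSP110 of the endoplasmic reticulum, stood at 0.41 (adjusted p = 0.416) and the J-domain protein Dnajb11 at -0.18 (adjusted p = 0.442). The smallest p in the immediate early list belonged to Atf3 (-1.45), Dusp1 (-0.84) and Nr4a1 (-0.99), with edgeR adjusted p of 0.0744, 0.167 and 0.276. DESeq2 called these 3 of the 19, against 2.79% of all genes. Without control replicate 2 it called Atf3 and Dusp1 but not Nr4a1 (-0.89, DESeq2 adjusted p = 0.285).

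**Figure D5:**
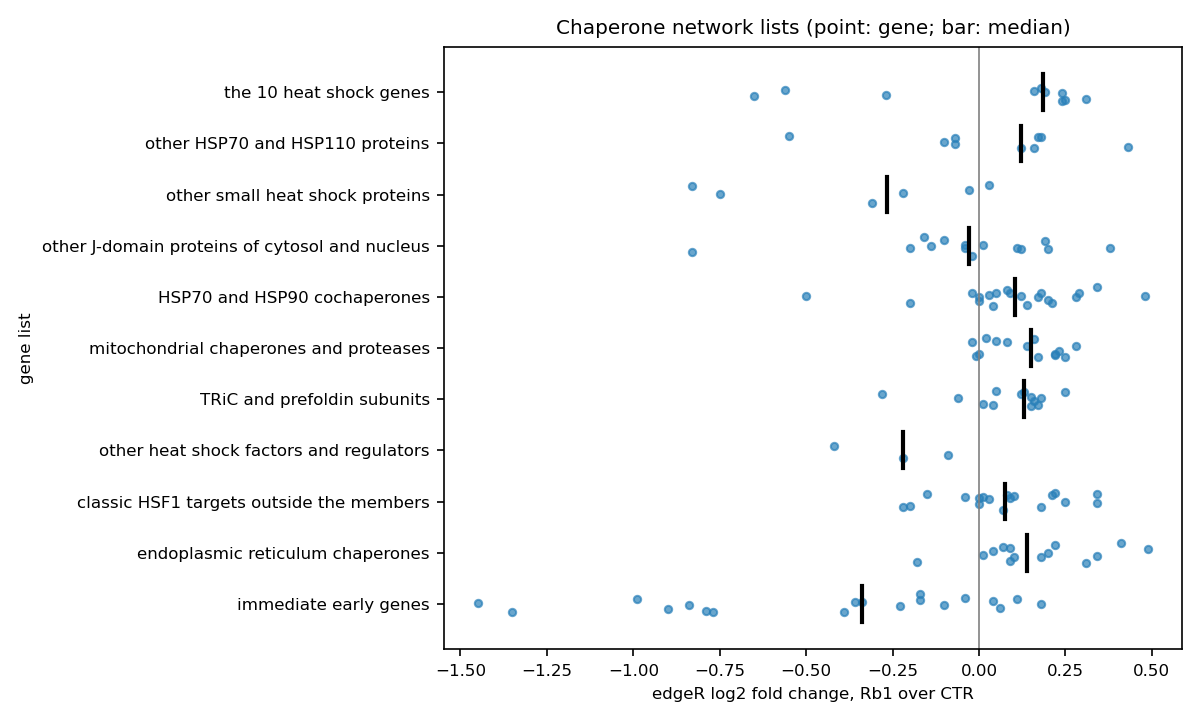
edgeR log2 fold change of Rb1 over CTR (x axis) for the tested genes of each chaperone network list and of the immediate early genes (y axis). Each point is a gene and the black bar is the list's median. The median of the 10 heat shock genes is 0.19 and that of the immediate early genes is -0.34.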

How the data were processed

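The 10 genes and the gene lists were chosen with earlier results of these data known. Per the file headers, the authors deposited read counts per Ensembl gene and FPKM, 1 column per sample. Per the submitters' processing notes, TopHat2 2.0.6, CASAVA 1.8 and the mm10 build were used. The sources used here do not state the counting tool, annotation release or strand setting. The deposited FPKM equals the count over a length and the column total, and that length exceeded 1.5 times the longest GENCODE M21 transcript in 66% of 13155 genes. Of 22040 identifiers, 21933 were paired with a symbol.

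Counts were tested with edgeR 4.0.16 (R 4.3.3) using TMM scaling, its expression filter (minimum count 10, minimum total 15) and the quasi-likelihood test without covariates, with Benjamini-Hochberg adjustment over 14093 genes. DESeq2 1.42.0 was the alternative tool. On simulated counts for Rb1 against control (13963 genes), 37% of the 2-fold and 93% of the 4-fold changes were recovered by edgeR. Of the 140 edgeR calls there, 10 were false. DESeq2 recovered 62% and 95%, and 50 of its 207 calls were false, so its calls need more caution. The simulated counts took their spread from edgeR's own estimates and held no muscle-rich sample like control replicate 2. These rates may therefore not hold for the deposited counts, and changes smaller than 2-fold were not simulated. Single values were tested with exact permutation tests in scipy 1.17.1. Since no label states that replicates came from different mice, the spread behind each p-value could be technical. Coordinates are from GENCODE M21 and promoters from RefSeq, both GRCm38. Named were the 10 genes, up to 3 genes of each other list with the smallest p, and the 8 genes most correlated with Hspa1a plus Hspa1b and with Hsp90aa1. Left out were unnamed predicted genes, and some genes that the rule names are not reported here. Each heat shock gene had 147 to 22971 counts per sample.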

Additional observations from a re-analysis of the deposited data

How the results depend on the processing

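Across the alternatives run (other scaling factors, no expression filter, DESeq2, a replicate block, Hspa1a and Hspa1b summed, and 1 sample left out), 0 of the 10 heat shock genes was called, and the smallest adjusted p was 0.365, for Hspa1a in DESeq2. Of 139 fold changes recomputed for them, 138 kept their sign, and 1 changed it: Hsph1 at -0.09 without Rb1 replicate 2 (range -0.09 to 0.42 with 1 sample left out). The median of the 10 genes was lowest, at 0.04, without control replicate 1 and highest, at 0.25, without control replicate 2. The number of all genes called was 1 in edgeR, 1 to 4 with 1 sample left out, 390 in DESeq2 and 196 in DESeq2 without control replicate 2, a setting chosen after seeing the data. The Hspa1a plus Hspa1b to Hspa8 ratio with Rb1 was 0.530 to 0.678 times that of controls with 1 sample left out. For Hsp90aa1 to Hsp90ab1 it was 0.931 to 1, the latter without control replicate 3. Scaling moved the median of all genes by at most -0.04 on the log2 scale. Same-numbered samples had deviations from their group means that correlated at 0.136, -0.109 and 0.018. With 3 samples per group the deviations constrain one another, so these values cannot show whether the numbers pair the samples. No label states a pairing. With the replicate block edgeR called 1 gene and 0 of the 10. The heat shock genes had 147 to 22971 counts per sample, and whether deeper libraries would change a call was not tested.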

Other observations

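Genes whose promoter window held a match of 3 heat shock element units were examined across the whole table. Of these, 61 were tested, with a median log2 fold change of 0.05 and 44.3% negative values, beside 0.01 over all genes. At an unadjusted edgeR p under 0.05 there were 11.5% of them, beside 11.6% of all genes, and 0 passed after adjustment.

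Hspb9 and Hsf5, genes known from the testis, were at trace levels, with most reads in a single library. Hspb9 had 10 counts in Rb1 replicate 1 and 0 to 2 in the other 5 samples, and Hsf5 had 13 counts there and 0 to 5 elsewhere. Prm1 and Tnp1, which pack sperm DNA, had 53 and 46 counts in Rb1 replicate 1 and at most 3 and 1 elsewhere. These genes were picked out after their values were seen, and none passed the filter on low counts. Among the 5 germ cell markers, Sycp3 passed it, at 7.03 to 28.4 FPKM. The summed level of the 5 markers did not single out that library. It was 64.8 CPM in Rb1 replicate 1 and 54.3 CPM in control replicate 1, against 15.3 to 26.8 CPM in the other samples.

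Hspb3, a small heat shock protein of muscle, had 3, 27 and 2 counts in control replicates 1, 2 and 3 and 0 in all 3 Rb1 samples, with the most in the library rich in muscle transcripts. Hspa1l, the neighbour of Hspa1a, was also highest in that library, at 2.01 FPKM against 0.644 to 1.36 FPKM elsewhere.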
